A study of Mus musculus with 6 samples.

Results

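Metallothioneins and the membrane transporters that carry zinc were followed in colon fibroblasts sorted by expression of the *Il11* reporter. The members are 9 genes named by symbol: the metallothioneins *Mt1* and *Mt2*, their regulator *Mtf1*, the importers *Slc39a8*, *Slc39a14*, *Slc39a6* and *Slc39a10*, and the exporters *Slc30a1* and *Slc30a4*. Each of the 9 symbols had a row, out of 20327 gene symbols in each library, and 9 of 9 passed the filter on low counts.

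Metallothioneins are small, cysteine-rich proteins of the cytosol that bind zinc and copper and buffer free metal. When free zinc increases, the zinc-finger factor MTF1 binds metal response elements (MREs) in front of the metallothionein genes and of the exporter gene *Slc30a1* and switches them on; glucocorticoids, inflammatory cytokines and oxidative stress are also known to induce *Mt1* and *Mt2*. Transporters of the ZIP family (Slc39) move zinc into the cytosol from outside or from organelles, and those of the ZnT family (Slc30) move it out of the cytosol.

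The study asked how fibroblasts that produce IL-11 in the injured colon differ from those that do not. All mice were C57BL/6 *Il11-Egfp* reporter mice, 9 to 15 weeks old, given 1.5% dextran sulfate sodium (DSS, which injures the colon epithelium) in drinking water for 5 days and then plain water, with cells taken on day 7. Cells negative for Ter119, CD45, CD31 and EpCAM were sorted into an IL-11⁺ group by their EGFP and an EGFP⁻ group taken as IL-11⁻ (n = 3 libraries per group). RNA was read by 5′Tag-seq, in which 1 end of each cDNA marks the 5′ side of a polyA transcript. Both groups came from treated reporter mice, so no group without DSS enters the comparison. The reporter is a bacterial artificial chromosome transgene driven by the *Il11* promoter, and EGFP stands for promoter activity of that transgene, in 1 selected line. The EGFP⁺ sort was not entirely pure.

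The libraries held 1022851 to 1169817 tags, so the floor of 3 tags corresponds to between 2.56 and 2.93 CPM, the tag count divided by the library's total and scaled up. *Il11* itself had 28, 51 and 89 tags in EGFP⁻ replicates 1, 2 and 3 and 1357, 732 and 2658 tags in EGFP⁺ replicates 1, 2 and 3. The groups did not overlap. Since the cells were sorted by the *Il11* reporter, this separation is a check of the sort and no separate result. Fibroblast markers were present in every library, with *Dcn* the most abundant of 8, and their summed level was 21670, 21470 and 25308 CPM in EGFP⁻ and 37451, 32193 and 29696 in EGFP⁺. Of these 8 markers, *Col3a1* was called higher in EGFP⁺ cells and none was called lower. *Lum* had a log2 fold change of -0.64 (adjusted p = 0.0378, EGFP⁺ below EGFP⁻ without overlap) and *Vim* one of -0.27 (adjusted p = 0.384), while the other 6 were positive.

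Several lists of markers of other cells had higher summed levels in the EGFP⁻ libraries. Smooth muscle markers summed to 1681, 2083 and 2752 CPM in EGFP⁻ and to 81.2, 110 and 245 in EGFP⁺; *Myh11* was the most abundant in EGFP⁻ libraries, *Smtn* in EGFP⁺ replicate 1 and *Acta2* in EGFP⁺ replicates 2 and 3, and 5 of 6 tested fell (*Acta2*, *Actg2*, *Cnn1*, *Des* and *Myh11*). Pericyte markers summed to 2427, 2067 and 1978 CPM in EGFP⁻ and to 844, 754 and 689 in EGFP⁺; *Rgs5* was the most abundant in EGFP⁻ and *Abcc9* in EGFP⁺ libraries, and 3 of 5 tested fell (*Cspg4*, *Notch3* and *Rgs5*). The other tested pericyte markers had positive log2 fold changes under the fold threshold, 0.66 for *Abcc9* (adjusted p = 0.0167, no overlap) and 0.71 for *Kcnj8* (adjusted p = 0.0394, with overlap). Of 6 endothelial markers with a row, *Tek* alone passed the filter and fell. *Pecam1*, *Lyve1* and *Emcn* had 0 tags in EGFP⁺ and at most 1, 3 and 7 tags in an EGFP⁻ library. *Prox1* had 3, 1 and 9 tags in EGFP⁻ and 2, 6 and 6 in EGFP⁺ libraries. None of the haematopoietic, epithelial, erythroid and mesothelial markers passed the filter, and their summed tags per library reached 33, 28, 372 and 27, each in an EGFP⁻ library. In bulk samples such as these, fewer cells of a type and less RNA per cell cannot be told apart. What part these other cells had in the values of the zinc genes was not tested.

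The metallothionein messages were among the most abundant in these fibroblasts. On the scale of CPM per kilobase of transcript, *Mt2* ranked 2nd to 7th and *Mt1* 5th to 9th of 17272 symbols with a known length, over the 6 libraries. Dividing by length favours such short transcripts where tags mark the 5′ side; by CPM alone, *Mt2* ranked 10th to 25th and *Mt1* 14th to 32nd of 20327 symbols. *Mt2* had 4337, 3858 and 3352 tags in EGFP⁻ replicates 1, 2 and 3, and 8152, 6630 and 5046 tags in EGFP⁺ replicates 1, 2 and 3. Every EGFP⁺ library was above every EGFP⁻ library. The log2 fold change of *Mt2* (EGFP⁺ over EGFP⁻) was 0.94 ± 0.22 (SE, n = 3 per group; adjusted p = 0.00560, edgeR). The p passed its threshold of 0.05, but the fold was under 2, so *Mt2* was not called by the rule used here, an adjusted p under 0.05 together with a more than 2-fold change. *Mt2* passed both parts of it without EGFP⁻ replicate 1 (1.055) or without EGFP⁺ replicate 3 (1.135). The log2 fold change was 0.729 without EGFP⁺ replicate 1 and 0.773 without EGFP⁻ replicate 3. Over all its alternatives the adjusted p ranged from 2.31e-07 to 0.181, the upper end from a test against a 1.5-fold change. The highest of the other values was 0.0484, without EGFP⁻ replicate 2.

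*Mt1*, whose protein has the same metal-binding role, had 4377, 3877 and 2948 tags in the EGFP⁻ libraries and 6582, 5573 and 3564 tags in the EGFP⁺ libraries. EGFP⁺ replicate 3 was the lowest of its group and lay below EGFP⁻ replicates 1 and 2, so the groups overlapped. For *Mt1* the log2 fold change was 0.65 ± 0.24 (SE, n = 3 per group; adjusted p = 0.0857, edgeR), and *Mt1* was not called. With the replicate number as a block, which compares same-numbered libraries, its adjusted p was 0.000257 at a log2 fold change of 0.62, still under 2-fold. The adjusted p was also under 0.05 without EGFP⁺ replicate 3 (0.00929, at 0.89) and with a filter of 1 tag in any library (0.00244). Over all its alternatives the adjusted p ranged from 0.000257 to 0.853. The upper end came from a test against a 1.5-fold change and not against no change. The highest of the other values was 0.306, without EGFP⁺ replicate 1. Without EGFP⁺ replicate 1 or EGFP⁻ replicate 3 the log2 fold change of *Mt1* was 0.42 and 0.43. On normalized tags, the EGFP⁺ library held 1.67, 1.55 and 1.40 times the *Mt1* level of the EGFP⁻ library with the same number, for numbers 1, 2 and 3. For *Mt2* the same ratios were 2.09, 1.85 and 1.75. In both genes the third EGFP⁻ library was the lowest of its group, and so was the third EGFP⁺ library.

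The ratio between these neighbours was taken within each library. *Mt2* had 0.991, 0.995 and 1.14 tags per *Mt1* tag in the EGFP⁻ libraries and 1.24, 1.19 and 1.42 in the EGFP⁺ libraries. Every EGFP⁺ library had more *Mt2* per *Mt1* than every EGFP⁻ library. Taken as *Mt1* over *Mt2*, the means in EGFP⁺ and EGFP⁻ were 0.785 ± 0.0699 (SD, n = 3) and 0.965 ± 0.0737 (SD, n = 3), a difference of -0.180 (exact permutation test, two-sided, p = 0.1, the smallest that 3 against 3 libraries allow).

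*Mt3*, a metallothionein best known from the brain and not among the 9 members, rose. It had 4, 2 and 1 tags in the EGFP⁻ libraries and 83, 23 and 11 tags in the EGFP⁺ libraries. The groups did not overlap, EGFP⁻ replicates 2 and 3 lay under the floor of 3 tags and replicate 1 just above it, and EGFP⁺ replicate 1 held most of the tags. The log2 fold change of *Mt3* was 4.17 ± 0.75 (SE, n = 3 per group; adjusted p = 0.000652, edgeR), and without EGFP⁺ replicate 1 it was 2.93 (adjusted p = 0.00328, on the genes that passed the filter with 6 libraries). *Mt3* passed the filter only through the EGFP⁺ libraries, so a gene tested at these EGFP⁻ levels had to be higher in EGFP⁺, and its test is no independent support for that direction. The ratio of summed tags, scaled by depth, was 17.7 (95% exact interval of counting error, 8.33 to 45.0). *Mt4* was not analysed here. In GENCODE the metallothionein genes lie on chromosome 8 (GRCm38, + strand) in the order *Mt4*, *Mt3*, *Mt2* (chr8:94172664-94173568) and *Mt1* (chr8:94179082-94180327), with 13575, 18517 and 5513 bases between neighbours. The first 300 bases of *Mt1*, *Mt2* and *Mt3* transcripts shared no 50-base window with another gene's transcript.

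Because the 3 neighbours each had a positive fold change, the bases before their annotated starts are shown, as a view of where MRE letters occur. Windows from 250 bases before to 50 bases after a gene's start were taken from RefSeq (GRCm38.p6) and matched 7 of the 9 members; *Slc39a14* and *Slc39a6* had no entry. They were searched on both strands for the MRE core letters TGCACNC and TGCGCNC, and overlapping matches were counted separately. Of all 32851 windows, 25.7% held at least 1 match, 7.11% at least 2, 1.97% at least 3 and 0.517% at least 4. The *Mt2* window held 4 matches, *Mt1* 3, *Slc30a4* 3, *Slc30a1* 2 and *Mt3* 1. *Slc39a8* had 2 windows, with 0 and 1 matches, and *Mtf1* and *Slc39a10* had 0. Each sequence below gives the 200 bases that end just before the annotated start, with matches in capitals; they hold 1 of the 3 matches of *Mt1*, 2 of the 4 of *Mt2* and 0 of the 1 of *Mt3*, and the others lie after the start or further upstream.
Mt1 (chr8:94178889-94179088, + strand): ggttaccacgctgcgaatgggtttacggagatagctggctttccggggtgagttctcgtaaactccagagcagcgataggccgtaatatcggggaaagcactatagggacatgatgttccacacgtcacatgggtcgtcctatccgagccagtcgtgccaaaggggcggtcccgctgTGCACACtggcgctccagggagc
Mt2 (chr8:94172418-94172617, + strand): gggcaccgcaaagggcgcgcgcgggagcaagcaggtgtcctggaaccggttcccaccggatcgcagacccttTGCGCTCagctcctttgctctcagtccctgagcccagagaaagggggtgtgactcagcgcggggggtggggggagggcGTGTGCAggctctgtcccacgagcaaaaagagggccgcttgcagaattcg
Mt3 (chr8:94152407-94152606, + strand): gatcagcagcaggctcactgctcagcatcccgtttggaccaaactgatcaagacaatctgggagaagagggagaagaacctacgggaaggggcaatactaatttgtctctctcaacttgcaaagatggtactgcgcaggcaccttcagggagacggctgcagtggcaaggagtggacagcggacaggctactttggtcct
A match is a run of letters and not a measured binding site. The RefSeq start is not the only annotated one: relative to it, GENCODE transcripts of *Mt1* begin at -7, 122 and 152 bases, those of *Mt2* at 46 and 242 bases and those of *Mt3* at 0 and 139 bases, positive values being downstream. The last 7 bases of the *Mt1* sequence above thus lie inside an annotated transcript. The bases before the downstream starts lie partly outside the windows, and tags summed per gene do not say which start was used. The first 20 bases after the start lay in a GENCODE transcript of the same gene for 74.8% of 25174 windows that could be compared, *Mt1* and *Mt3* among them and *Mt2* not.

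*Mtf1*, the zinc sensor itself, had 17, 16 and 25 tags in the EGFP⁻ libraries and 19, 16 and 14 in the EGFP⁺ libraries. The groups overlapped. Its log2 fold change was -0.07 ± 0.32 (SE, n = 3 per group; adjusted p = 0.921, edgeR), with a 95% interval from -0.71 to 0.56. The sign turned without EGFP⁻ replicate 3 (0.057) and without EGFP⁺ replicate 3 (0.067). *Mtf2*, listed with it as a regulator by name, had 70, 48 and 68 tags in EGFP⁻ and 81, 86 and 85 in EGFP⁺ libraries, without overlap. Its log2 fold change was 0.60 (adjusted p = 0.0432), under the fold threshold. The adjusted p was over 0.05 in DESeq2 (0.121), with library size only (0.0977), with 10 tags in all 6 libraries (0.0649) and in 5 of 6 fits without a library (0.0594 to 0.223). Over all its alternatives the adjusted p ranged from 0.0174 to 0.957, the upper end from a test against a 1.5-fold change.

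Among the importers, *Slc39a14* (ZIP14), which carries zinc, iron and manganese across the plasma membrane and is known as an inflammation-induced transporter in liver, rose. It had 117, 102 and 176 tags in EGFP⁻ replicates 1, 2 and 3 and 217, 299 and 232 tags in EGFP⁺ replicates 1, 2 and 3. The groups did not overlap; EGFP⁺ replicate 2 was the highest of the 6 libraries and EGFP⁻ replicate 3 the highest of its group. The log2 fold change of *Slc39a14* was 1.09 ± 0.19 (SE, n = 3 per group; adjusted p = 0.000453, edgeR). The fold was just under 2 without EGFP⁻ replicate 2 (0.96 on the log2 scale) or without EGFP⁺ replicate 2 (0.94 on the genes of the 6-library filter), with adjusted p of 0.0100 and 0.00568. Over all its alternatives the adjusted p ranged from 9.89e-08 to 0.0290, the upper end from a test against a 1.5-fold change. *Slc39a14* lies at chr14:70303469-70351425 (- strand).

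*Slc39a8* (ZIP8), the closest relative of ZIP14 and also a carrier of zinc and manganese, rose by the test but not in every library. It had 11, 11 and 13 tags in the EGFP⁻ libraries and 42, 35 and 8 tags in the EGFP⁺ libraries. EGFP⁺ replicates 1 and 2 were above every EGFP⁻ library, and EGFP⁺ replicate 3 was below them all. The log2 fold change of *Slc39a8* was 1.45 ± 0.46 (SE, n = 3 per group; adjusted p = 0.0387, edgeR). Leaving out a library ended the call in 5 of 6 cases: without EGFP⁻ replicate 1, 2 or 3 the adjusted p was 0.104, 0.130 and 0.0972, and without EGFP⁺ replicate 1 or 2 it was 0.220 and 0.144. Without EGFP⁺ replicate 3 the log2 fold change was 1.92 (adjusted p = 0.000311). The call was also lost with scaling by library size only (adjusted p = 0.0528) and with a test against a 1.5-fold change (adjusted p = 0.157); over all alternatives its adjusted p ranged from 0.000311 to 0.226.

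*Slc39a6* (ZIP6) and *Slc39a10* (ZIP10), close relatives that bring zinc into cells, were not called. *Slc39a6* had 54, 64 and 62 tags in the EGFP⁻ libraries and 65, 49 and 61 in the EGFP⁺ libraries, with overlap and a log2 fold change of 0.12 ± 0.20 (SE, n = 3 per group; adjusted p = 0.775). *Slc39a10* had 36, 33 and 55 tags in EGFP⁻ and 37, 36 and 35 in EGFP⁺ libraries. The groups overlapped, EGFP⁻ replicate 3 was the highest library, and the log2 fold change was -0.03 ± 0.24 (SE, n = 3 per group; adjusted p = 0.960). The 95% intervals of the log2 fold changes ran from -0.28 to 0.52 for *Slc39a6* and from -0.50 to 0.44 for *Slc39a10*.

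Of the exporters, *Slc30a1* (ZnT1), which carries zinc out through the plasma membrane and is itself a known MTF1 target, had few tags: 15, 6 and 8 in EGFP⁻ and 10, 12 and 14 in EGFP⁺ libraries. The groups overlapped because of EGFP⁻ replicate 1, the highest library. For *Slc30a1* the log2 fold change was 0.46 ± 0.43 (SE, n = 3 per group; adjusted p = 0.549, edgeR), with a 95% interval from -0.38 to 1.30. It was 0.94 without EGFP⁻ replicate 1, 0.22 without EGFP⁻ replicate 2 and 0.26 without EGFP⁻ replicate 3, and was called in none of these. *Slc30a4* (ZnT4), which loads zinc into vesicles, had 38, 28 and 43 tags in EGFP⁻ and 42, 46 and 51 tags in EGFP⁺ libraries. EGFP⁻ replicate 3 had more tags than EGFP⁺ replicate 1, and the normalized levels did not overlap. For *Slc30a4* the log2 fold change was 0.51 ± 0.23 (SE, n = 3 per group; adjusted p = 0.158, edgeR), and it was not called.

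**Figure D1:**
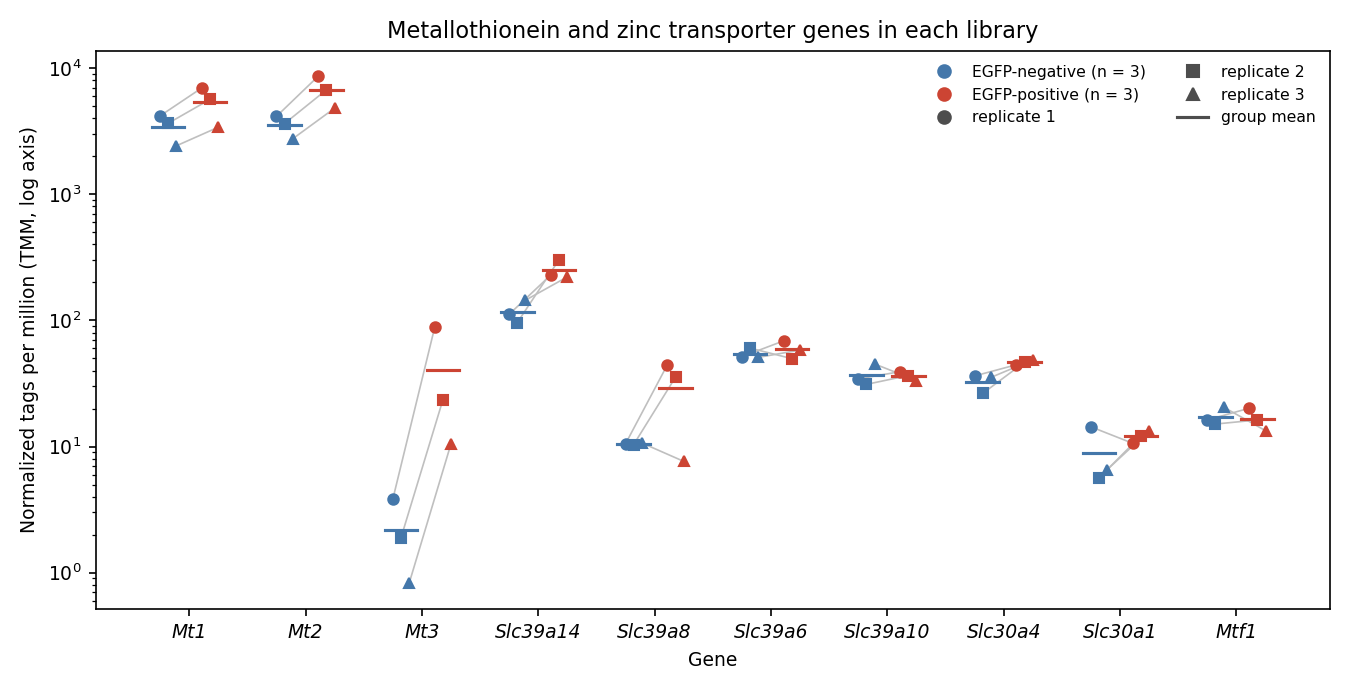
Normalized CPM (log axis) of the 9 members and *Mt3* in each library; blue marks are EGFP⁻ and red marks EGFP⁺ libraries, the mark's shape gives the replicate number, grey lines join libraries with the same number and bars are group means. *Mt2*, *Mt3*, *Slc39a14* and *Slc30a4* have all EGFP⁺ libraries above all EGFP⁻ libraries, while for *Slc39a8* EGFP⁺ replicate 3 lies under the EGFP⁻ libraries.

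Counted together, 2 of the 9 members were called higher in EGFP⁺ cells (*Slc39a14* and *Slc39a8*), beside 3.44% of all 9334 tested genes. None of the 9 was called lower in edgeR, beside 6.37% of all tested genes, and the count was also 0 at an unadjusted p under 0.05 and in DESeq2. At the adjusted p alone, 3 members were higher, beside 6.84% of all tested genes, and 0 were lower, beside 8.7%. The members' median log2 fold change was 0.51, beside -0.01 over all tested genes, and 7 of 9 fold changes were positive. *Slc30a1*, among these 7, had 15, 6 and 8 tags in EGFP⁻ and needed its EGFP⁺ libraries (10, 12 and 14) to pass the filter. Its positive sign is thus not independent of the filter. The normalized levels of 3 members did not overlap, with EGFP⁺ above EGFP⁻ (*Mt2*, *Slc39a14* and *Slc30a4*), beside 14.5% of all tested genes. The count of members called higher was 0 without EGFP⁻ replicate 2 or EGFP⁺ replicate 2, and 1 without EGFP⁻ replicate 3 or EGFP⁺ replicate 1.

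The families as a whole comprised 31 listed genes for metallothioneins, ZIP and ZnT transporters and regulators, of which 24 had a row and 20 passed the filter. Of these 20, 3 were called higher (*Mt3*, *Slc39a14* and *Slc39a8*), beside 3.44% of all 9334 tested genes. In edgeR 0 were called lower (0 also at an unadjusted p under 0.05 and in DESeq2), beside 6.37% of all tested genes. The median log2 fold change of the 20 was 0.42. *Mt3* entered these counts only through its EGFP⁺ level. *Slc30a1* and *Slc30a6* (9, 10 and 12 tags in EGFP⁻, 10, 13 and 11 in EGFP⁺) passed the filter on EGFP⁺ libraries but not on EGFP⁻ libraries alone. Their positive signs in the median are thus not independent of the filter. The count called higher was 0 without EGFP⁺ replicate 2, and 1 without EGFP⁻ replicate 2 or EGFP⁺ replicate 1; *Mt3* did not pass the filter in the fits without an EGFP⁺ library, and on the genes of the 6-library filter these counts were 1, 1 and 2. At the adjusted p alone, 6 were higher, beside 6.84% of all tested genes, and 0 lower, beside 8.7%. *Mtf2*, listed as a regulator by name alone, is among these 6, and a part of it in zinc handling was not tested. *Slc39a7* (ZIP7), which releases zinc from the endoplasmic reticulum and Golgi apparatus, had 207, 227 and 304 tags in EGFP⁻ and 356, 375 and 397 tags in EGFP⁺ libraries. The groups did not overlap, and the log2 fold change of *Slc39a7* was 0.78 ± 0.16 (SE, n = 3 per group; adjusted p = 0.00216), under the fold threshold; 43.9% of the 50-base windows at its 5′ side also occur in the transcript *Gm20427*. The remaining tested importers were *Slc39a9* with a log2 fold change of 0.42, *Slc39a1* with 0.16, *Slc39a13* with 0.01 and *Slc39a3* with -0.18. The other tested exporters were *Slc30a7* with 0.43, *Slc30a6* with 0.29, *Slc30a5* with 0.16 and *Slc30a9* with -0.13. None of these was called. With 1 library left out, on either gene filter, the log2 fold change ranged from 0.142 to 0.766 for *Slc39a9* and from 0.054 to 0.308 for *Slc39a1*. It ranged from 0.182 to 0.356 for *Slc30a6* and from -0.359 to -0.014 for *Slc30a9*. *Slc39a11* reached at most 10 tags in a library, and *Slc39a2*, *Slc39a4* and *Slc30a10* had at most 2 tags in any. *Slc39a5*, *Slc39a12*, *Slc30a2*, *Slc30a3*, *Slc30a8* and *Tmem163* were not analysed here.

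**Figure D2:**
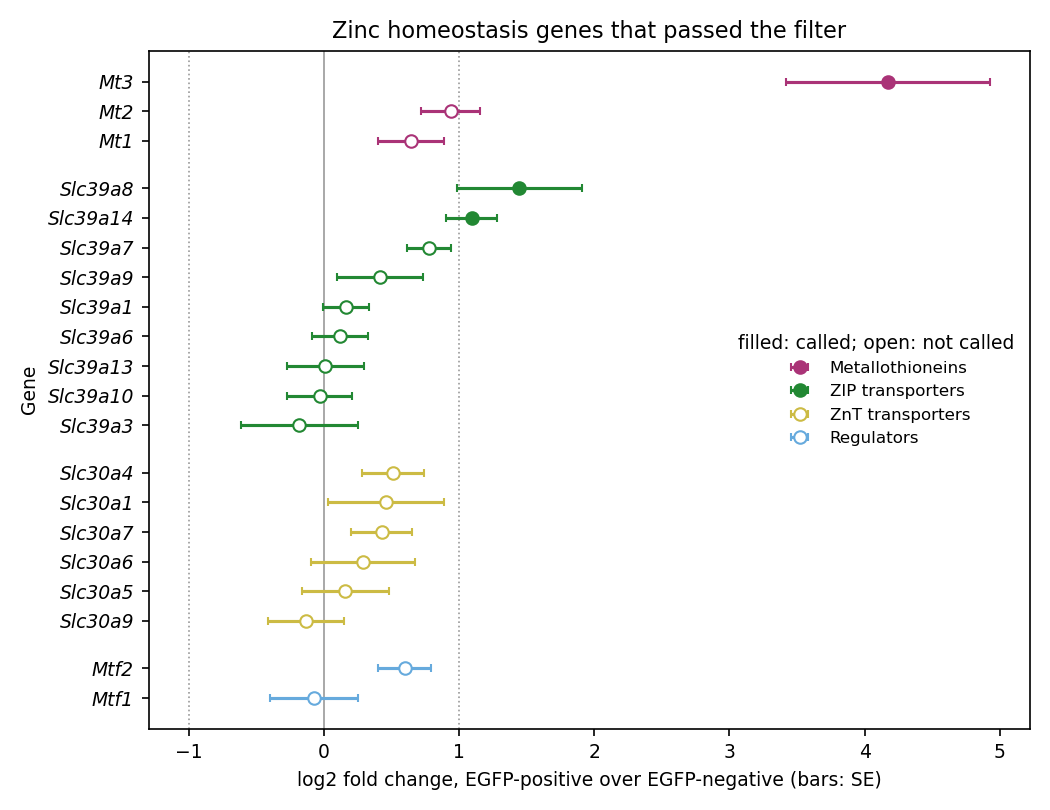
Log2 fold change (EGFP⁺ over EGFP⁻, n = 3 libraries per group) of the 20 tested zinc genes, grouped by family; points are edgeR estimates, bars are SE, filled points were called and dotted lines mark a 2-fold difference. *Mt3*, *Slc39a8* and *Slc39a14* are the called genes, and *Mt2* lies just under the fold threshold at 0.94. *Mtf2* is listed as a regulator by name alone.

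The levels of other metal-handling genes stood beside these as follows. For the counts of called genes in this paragraph, 3.44% of all 9334 tested genes were called higher and 6.37% lower. Of 12 tested copper genes (*Mt1* and *Mt2* included), 2 were called higher, *Cox17*, which carries copper to mitochondria, and *Cp*, the ferroxidase ceruloplasmin, and the median log2 fold change was 0.45. Of 16 tested iron genes, 3 were called higher, *Slc25a37*, the mitochondrial iron importer, and *Slc39a14* and *Slc39a8*, which stand in both lists, and the median was 0.50. With the replicate block, *Hmox1*, which degrades haem, was called as well. Known inducers of metallothionein genes include glucocorticoids; of 8 tested genes of the glucocorticoid response, *Tsc22d3* fell, and the median was -0.32. Of 10 tested genes of cell dissociation and the immediate early response, 3 fell (*Atf3*, *Btg2* and *Junb*), the median was -0.94, and 9 of 10 did not overlap with EGFP⁺ lower, beside 16.7% of all tested genes. The part of these responses in the metallothionein levels was not tested.

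The patterns most like *Mt1* over the 6 libraries were those of *Serpina3n* (Pearson r = 0.988), *Kcnj8* (0.988, also in the pericyte list) and *Napa* (0.987). Those most like *Slc39a14* were *Sel1l* (0.998), *Zak* (0.993) and *Fam129b* (0.991). These are the highest among all tested genes other than the members and are given as a description.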

How the data were processed

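RNA of EGFP⁺ and EGFP⁻ cells was sequenced in 3 libraries per group, from 3 mice according to the methods. The authors used Cutadapt 1.18 for trimming and Bowtie2 2.2.5 for mapping to the RNAs of RefSeq (mm10), and deposited tag counts per gene symbol, not normalized. How tags with several mapping positions were treated is not given in the sources used here. Sample titles gave the groups and the replicate numbers.

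The filter kept 9334 genes, those that reached 10 tags in 3 or more libraries, for a test in R 4.3.3 with edgeR 4.0.16 (TMM, glmQLFit, glmQLFTest, group as the term), with Benjamini-Hochberg adjustment over all tested genes. Called genes had an adjusted p under 0.05 together with a more than 2-fold change. SE is the log2 fold change divided by the square root of the F statistic, and intervals are 1.96 SE to each side. Intervals and floors cover counting error only where they rest on tags. Same-numbered libraries of the groups had correlated deviations from their group means (r = 0.232, 0.208 and 0.271 over 5064 genes). Between differently numbered libraries r ranged from -0.206 to -0.014. Deviations from a group mean cancel within the group, so these signs are not independent. The replicate number was used as a block in an alternative fit.

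The members and lists were chosen with earlier results of these data known. Named were all 9 members, the tested genes of the zinc lists, the called genes of the other lists, and the 3 genes most correlated with *Mt1* and with the member of smallest p (log2 CPM, prior count 2). Some of the listed marker genes are not reported here. Positions and transcripts come from GENCODE mouse release M21, promoter windows from RefSeq. Alternatives were RLE, iterative TMM, library size only, DESeq2 1.42.0, other filters and call rules, the block, and each library left out. The block without a fold threshold, the fits without a library on the genes of the 6-library filter, and the *Mt1* to *Mt2* ratio without each library were added after seeing the data. Python 3.11.15, pandas 2.3.3 and scipy 1.17.1 were used for tables and the permutation test.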

Additional observations from a re-analysis of the deposited data

How the results depend on the processing

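Across the alternatives, 521 of 596 recomputed values kept their direction, their side of the threshold or, for counts, stayed within 1.5 times. These values are not independent, so their share does not measure how robust the results are. The other call rules reuse fold changes of the same fit, and each library was left out on both gene filters. The replicate block changed no member's call. With library size only, 1 member was called higher and *Slc39a8* (1.35) was not called, while *Slc39a13* turned to -0.080. With the filter of 10 tags in all 6 libraries, 256 genes were called lower, 1 member and 1 zinc gene higher, and *Slc39a13* was at -0.032; *Mt3*, *Slc39a8*, *Slc30a1*, *Slc30a6* and *Slc39a3* were not tested under it. With at least 1 tag in any library, *Slc39a10* turned to 0.012. Without a fold threshold, 638 genes and 6 zinc genes were called higher, *Mt2* (0.939) among them. With glmTreat against a 1.5-fold change, 378 genes were called lower, 1 member higher, and *Slc39a8* (1.447) was not called. With the block and no fold threshold, added after seeing the data, 871 genes were called higher and 1048 lower, with 4 members and 7 zinc genes higher, *Mt1* (0.620) and *Mt2* (0.919) included. With a library left out, on either gene filter, genes called lower ranged from 341 to 580, members called higher from 0 to 3, zinc genes called higher from 0 to 4, and the log2 fold changes from 0.415 to 0.890 for *Mt1*, 0.221 to 0.963 for *Slc30a1*, 0.370 to 0.588 for *Slc30a4*, 0.002 to 0.234 for *Slc39a6*, 0.726 to 1.135 for *Mt2*, 0.943 to 1.275 for *Slc39a14*, 1.022 to 1.918 for *Slc39a8*, -0.225 to 0.076 for *Mtf1*, -0.147 to 0.150 for *Slc39a10*, -0.029 to 0.487 for *Slc30a5*, -0.203 to 0.297 for *Slc39a13* and -0.403 to 0.072 for *Slc39a3*. The difference of the *Mt1* to *Mt2* ratio ranged from -0.222 to -0.141. The cause of these shifts was not tested. *Mtf1*, *Slc30a1* and *Slc39a8* had few tags, which limits the precision of their fold changes.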
